A study of Mus musculus with 6 samples.

Results

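The epidermal growth factor (EGF) receptor system was examined in mouse heart RNA through 10 genes: the ligands Hbegf, Egf, Areg and Nrg1, the receptors Egfr, Erbb2, Erbb3 and Erbb4, and the sheddases Adam12 and Adam17. Members were all probe sets that the platform annotation assigns to exactly 1 of these genes, which gave 20 of 45037 probe sets and 9 of 18193 genes. Areg, which encodes amphiregulin, was not analysed here. The series held 3 Affymetrix Mouse430_2 arrays labelled as hearts of C57BL/6 mice overexpressing hAT1R, the human type 1 angiotensin II receptor, and 3 labelled as hearts of normal C57BL/6 mice. Per the design text, age and gender were matched. Neither the ages nor the promoter that drives the transgene is stated in those texts. No treatment is named for either group. Nothing in the labels says whether arrays came from separate animals, and p-values here therefore reflect only the spread among these 6 arrays, which may in part be technical.

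Angiotensin receptors can switch on the EGF receptor without binding it, a process called transactivation. In the usual scheme a membrane metalloproteinase (a sheddase) cuts a membrane-anchored ligand such as heparin-binding EGF, and the freed ligand activates EGF receptors on the same or a neighbouring cell. In heart muscle a second branch is well known, in which neuregulin-1 from the endothelium acts on ErbB4 and ErbB2 of cardiomyocytes. The comparison asked whether RNA for these components differed in the transgenic hearts. The arrays measured RNA abundance, not cleavage of a ligand or phosphorylation of a receptor.

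The instrument's records named the groups the other way round. In the chip lot field, "control" had been typed for each array whose label says transgenic and "transgene" for each array whose label says otherwise, and by those words every difference below would change sign. The groups follow the sample labels, and the human receptor, to which the annotation assigns no probe set, could not check them. Fluidics station 2 washed every labelled transgenic array plus non-transgenic array 1, station 3 washed non-transgenic arrays 2 and 3, and the labelled transgenic group was scanned first. Scan order and group therefore cannot be told apart. Station 3 held no labelled transgenic array. With the station as a block (a term in the fit), a difference therefore sets the labelled transgenic arrays against non-transgenic array 1 alone. The same holds within station 2. Xist, the RNA of the inactive X chromosome, was high (log2 9.48 to 9.69) on labelled transgenic arrays 1 and 3 and on non-transgenic array 2, and at 2.49 to 3.01 on the others, so each group held both sexes in unequal numbers. The labelled tissue matched its markers: all 9 cardiomyocyte genes checked lay above the brightness filter, and 0 of 5 lung epithelium genes did. That filter kept a probe set whose mean over the 6 arrays was above the median of such means, log2 3.285. Of the 20 member probe sets, 11 from 7 genes passed it and were tested, and 9 did not.

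In the labelled transgenic hearts the largest difference among the tested members was in a ligand, Hbegf, which encodes heparin-binding EGF-like growth factor. Its RNA was 1.88-fold higher (95% interval 1.54 to 2.29) by 1 probe set and 1.83-fold higher (1.47 to 2.27) by the other, without reaching the threshold after adjustment over all probe sets. Egf was 1.6-fold higher (1.12 to 2.29) and the receptor Erbb3 1.17-fold lower (1.01 to 1.36), and these did not pass either. The other 7 tested probe sets, of Egfr, Erbb2, Erbb4 and Adam17, differed by -0.07 to 0.12 on the log2 scale. No member probe set had an adjusted p under 0.05 in limma, against 0.218% of all 22518 probe sets tested (49 called). At an unadjusted p under 0.05 there were 4 of 11, 3 higher and 1 lower, where 16.4% of all probe sets tested reached it, 9.41% higher and 6.98% lower. Labelled transgenic and non-transgenic values were fully apart at the same 4 of 11, against 23% of all probe sets tested.

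**Figure D1:**
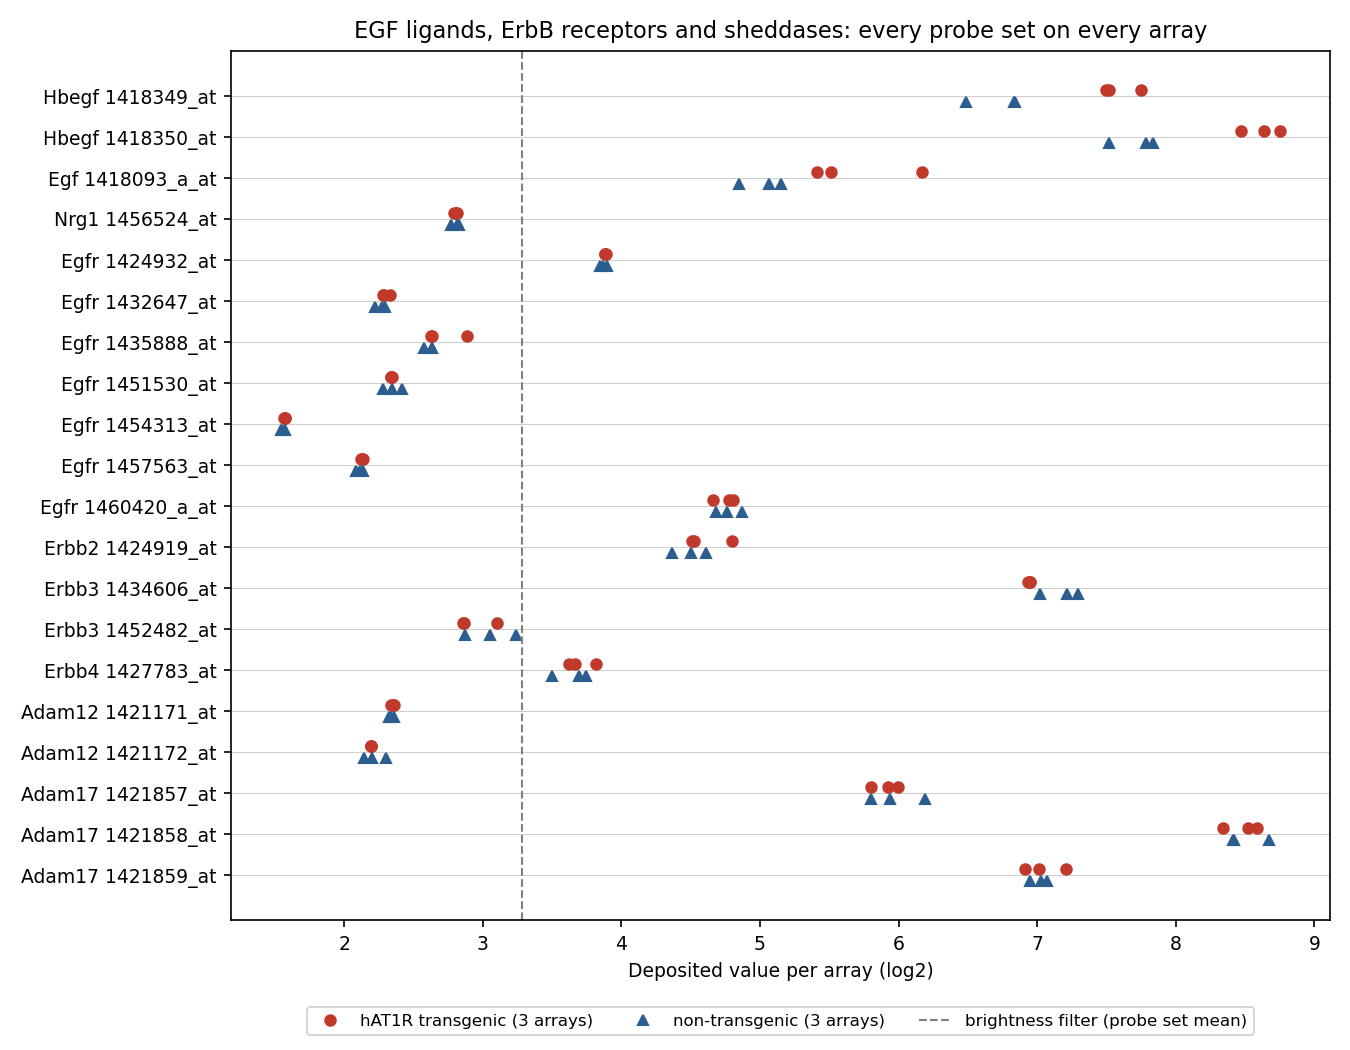
Deposited log2 value (horizontal axis) of each of the 20 member probe sets on each array, with circles for the 3 arrays labelled transgenic, triangles for the 3 labelled non-transgenic, and a dashed line at the brightness filter, log2 3.285. Circles and triangles are apart for both Hbegf probe sets, Egf and the brighter Erbb3 probe set, and the 9 probe sets left of the line lie between 1.55 and 3.24.

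Hbegf was read by 2 probe sets. Probe set 1418350_at stood at log2 8.63, 8.47 and 8.75 on labelled transgenic arrays 1, 2 and 3, and at 7.78, 7.52 and 7.83 on non-transgenic arrays 1, 2 and 3. The lowest labelled transgenic array was 1.56-fold above the highest non-transgenic one, and array 3 was the highest of its group. Means were 8.62 ± 0.14 against 7.71 ± 0.17 (log2, SD, n = 3), a difference of 0.91 ± 0.12 (SE, limma adjusted p = 0.065). Probe set 1418349_at stood at 7.52, 7.5 and 7.75 against 6.48, 6.84 and 6.83. Here too the groups were apart, with a gap of 1.58-fold between the nearest arrays, and array 3 was again highest. Its means were 7.59 ± 0.14 and 6.72 ± 0.20, and its difference was 0.87 ± 0.13 (limma adjusted p = 0.076). By absolute size of difference they ranked 294 and 331 of 22518, and by p 77 and 136. Both probe sets read the same RNA extracts and are not separate evidence of the animals. The mean of both, in a fit of 1 value per gene, differed by 0.89 and passed (limma adjusted p = 0.0359). Taken as a single probe set, 1418350_at passed with an intensity trend in the variance (limma adjusted p = 0.045) and with a stricter filter at log2 5 (limma adjusted p = 0.039). Over all alternatives the Hbegf difference ran from 0.81 to 0.98 and its adjusted p from 0.0359 to 0.198, the last without labelled transgenic array 3. When station was a block, the differences, against non-transgenic array 1 alone, were 0.83 for 1418350_at and 1.10 for 1418349_at. With a term for Xist they were 0.92 (limma adjusted p = 0.144) and 0.82 (limma adjusted p = 0.145).

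Summed markers of macrophages and of fibroblasts lay higher on the labelled transgenic arrays. The summed linear signal of 9 macrophage genes was 6928 to 8165 there and 5227 to 5724 on the non-transgenic arrays, with all 9 genes above the filter. That of 9 fibroblast genes, also all above the filter, was 17443 to 22279 against 13168 to 15074. In each of these lists 7 of 9 genes had an unadjusted p under 0.05 and a higher level, against 10.4% of all genes, while none passed over all probe sets. The macrophage gene Cd163 went the other way, at a difference of -0.56 (limma adjusted p = 0.393), with overlap between groups. The 8 endothelial genes summed to 4317 to 5199 against 4306 to 5022, so those groups overlapped, as did the 9 cardiomyocyte genes at 346595 to 353989 against 352460 to 361068. The sum of the 7 smooth muscle and pericyte genes, all above the filter, overlapped too. Of these genes, 6 had a negative difference, against 5248 of all 11016 genes, and none passed. At an unadjusted p under 0.05, 2 were lower, against 7.76% of all genes. Sums of the lymphocyte, mast cell, epicardial and lung lists also overlapped. Of their measured genes only 4 of 7, 1 of 6, 1 of 6 and 0 of 5 lay above the filter. Those sums say little about whether RNA of these cells differed. The 5 measured adipocyte genes, 1 of them above the filter, summed to 19757 to 20848 against 21737 to 25389, and the 7 skeletal muscle genes, 4 above it, to 47583 to 59617 against 31039 to 35680. The lower adipocyte sum came from Fabp4, at a difference of -0.25 (limma adjusted p = 0.234). Adipoq, Lep, Retn and Ucp1 lay below the filter, so the sum does not show whether adipocyte RNA differed. The higher skeletal muscle sum came from Acta1, also a gene of the fetal heart, at a difference of 2.07 (limma adjusted p = 0.0671), while Ckm was at -0.17 (adjusted p = 0.358). A gauge of RNA integrity, the log2 signal of actin at its 3′ end less that at its 5′ end, was 0.796 to 0.939 against 0.974 to 1.05. The part of these shifts in the level of Hbegf or of any other member was not tested. In tissue RNA, fewer cells of a type and less RNA per cell cannot be told apart.

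Egf encodes the soluble founding member of the ligand family, made as a long membrane-bound precursor. Its single probe set, 1418093_a_at, stood at log2 5.51, 5.41 and 6.17 on the labelled transgenic arrays and at 5.15, 5.06 and 4.85 on the others. The groups did not overlap, but labelled transgenic array 3 lay well above the other two. The means were 5.70 ± 0.41 and 5.02 ± 0.16 (log2, SD, n = 3), and the difference was 0.68 ± 0.21 (SE, limma adjusted p = 0.213). Without labelled transgenic array 3 it was 0.44 (limma adjusted p = 0.328), more than 1.5 times smaller. With the station as a block it was 0.54, against non-transgenic array 1 alone.

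Nrg1, the neuregulin of the endothelial branch, was read by 1 probe set, 1456524_at, which lay below the filter. It stood at 2.79, 2.81 and 2.81 on the labelled transgenic arrays and at 2.77, 2.81 and 2.83 on the others, so the groups overlapped, and it was not tested. Of the other ligands of the family (Tgfa, Btc, Ereg, Epgn, Nrg2, Nrg3 and Nrg4), all 7 had probe sets, 14 in total, and none lay above the filter. Their values ran from 1.95 to 3.14 and their differences from -0.085 to 0.057. At such levels these arrays could not show whether a ligand differed. Hbegf and Egf were thus the members of the ligand family whose signal could be compared.

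**Figure D2:**
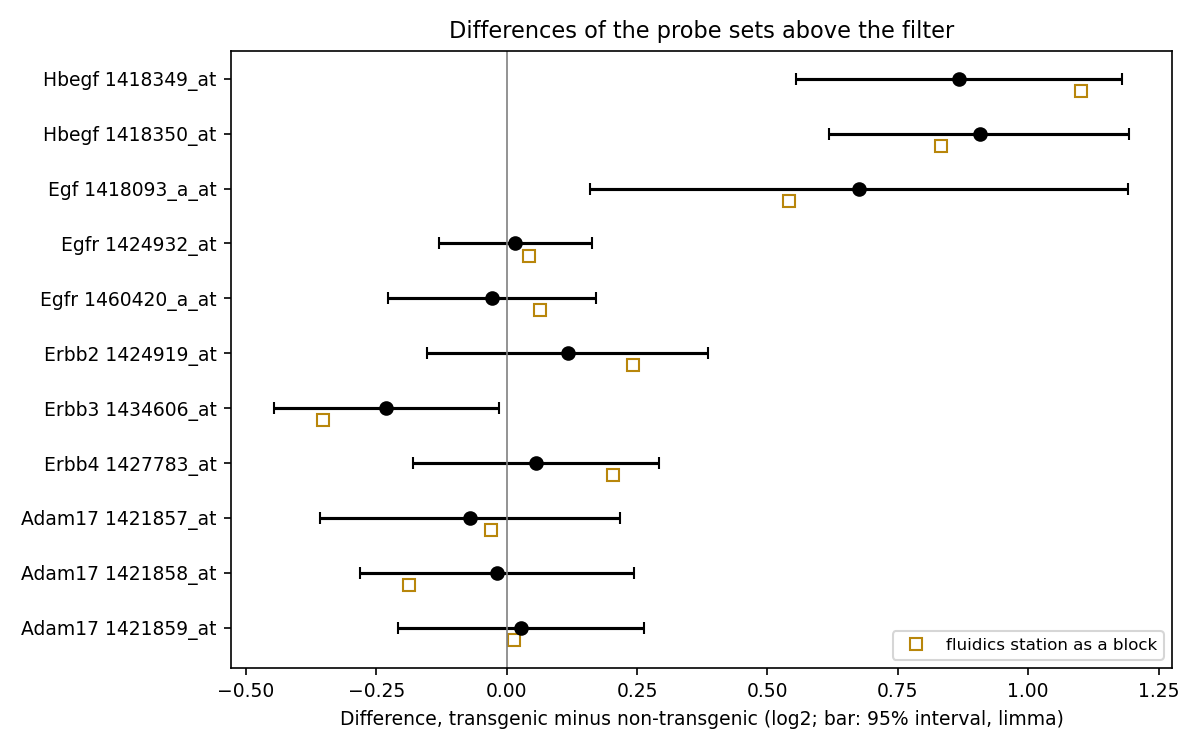
Difference in log2 value, labelled transgenic minus non-transgenic, for the 11 member probe sets above the filter; points and bars are the limma estimate and its 95% interval, and open squares the estimate with the fluidics station as a block. The intervals of both Hbegf probe sets lie above 0.5, and that of Egf starts at 0.16. That of Erbb3 ends at -0.015, and the other 7 include 0. The squares set the labelled transgenic arrays against non-transgenic array 1 alone.

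Among the receptors, Egfr itself, which binds EGF and heparin-binding EGF, was read by 7 probe sets, of which 2 lay above the filter. The brightest, 1460420_a_at, stood at log2 4.80, 4.77 and 4.66 on the labelled transgenic arrays and at 4.68, 4.76 and 4.87 on the others. The groups overlapped and the difference was -0.03 ± 0.08 (SE, limma adjusted p = 0.903), with a 95% interval from -0.23 to 0.17. A block for the station turned its sign, to 0.06. The second, 1424932_at, differed by 0.02 ± 0.06 (limma adjusted p = 0.923) with an interval from -0.13 to 0.16. It was dim, at 3.88, 3.89 and 3.88 against 3.84, 3.90 and 3.87. It was lowest on non-transgenic array 1, as were 85% of the probe sets below the filter. Its narrow interval may therefore say little about whether Egfr RNA differed. The dimmer Egfr probe sets were between 1.55 and 2.89.

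Erbb2, the receptor with no known ligand of its own that pairs with the others, stood at 4.51, 4.52 and 4.80 against 4.37, 4.61 and 4.50 (probe set 1424919_at). The groups overlapped, with labelled transgenic array 3 highest, and the difference was 0.12 ± 0.11 (SE, limma adjusted p = 0.651). The interval ran from -0.15 to 0.39, and without labelled transgenic array 3 the difference was 0.02. Erbb4, the neuregulin receptor of cardiomyocytes, was dim, at 3.62, 3.67 and 3.82 against 3.50, 3.74 and 3.69 (probe set 1427783_at). Its groups overlapped too, and the difference was 0.06 ± 0.10 (limma adjusted p = 0.822), with an interval from -0.18 to 0.29.

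Erbb3, a neuregulin receptor whose own kinase is weak and which signals through its partners, was the only one of the 4 receptors with a tested probe set whose groups were apart. Probe set 1434606_at stood at 6.95, 6.94 and 6.95 on the labelled transgenic arrays and at 7.30, 7.21 and 7.02 on the others. The labelled transgenic values were nearly equal, and the nearest non-transgenic array, array 3, was 1.05-fold above them. Means were 6.95 ± 0.01 and 7.18 ± 0.14 (log2, SD, n = 3), and the difference was -0.23 ± 0.09 (SE, limma adjusted p = 0.28). With the station as a block it was -0.35, against non-transgenic array 1 alone. Over the alternatives it ran from -0.35 to -0.17, with a limma adjusted p from 0.168 to 0.514. The other Erbb3 probe set, 1452482_at, lay below the filter and overlapped between groups, at 3.10, 2.86 and 2.86 against 3.24, 3.05 and 2.87. Erbb3 is also abundant in Schwann cells. Of 5 measured Schwann cell and neuron genes 3 lay above the filter (S100b and Th did not), and the list summed to 56.3 to 58.1 against 55 to 57.1, with overlap.

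Of the sheddases, only Adam17 was bright enough to test, and it did not pass. Adam17, also called TACE, is a main enzyme that releases EGF family ligands. Its brightest probe set, 1421858_at, stood at 8.34, 8.52 and 8.59 on the labelled transgenic arrays and at 8.67, 8.42 and 8.41 on the others, with overlap. The difference was -0.02 ± 0.11 (SE, limma adjusted p = 0.952) and the 95% interval from -0.28 to 0.24. Its sign turned, to 0.03, with array weights, and the station as a block gave -0.19, against non-transgenic array 1 alone. The other 2 Adam17 probe sets differed by -0.07 ± 0.12 (1421857_at, limma adjusted p = 0.817) and 0.03 ± 0.10 (1421859_at, limma adjusted p = 0.922), and their groups overlapped. Adam12, a sheddase of heparin-binding EGF described in heart hypertrophy, was below the filter with both probe sets. Probe set 1421171_at was at 2.35, 2.36 and 2.34 against 2.32, 2.36 and 2.34, and 1421172_at at 2.19, 2.20 and 2.19 against 2.14, 2.20 and 2.30. These values overlapped and do not bear on whether Adam12 RNA differed, since the signal was near the bottom of the scale. Non-transgenic array 1 was the lowest array at 8 of the 9 dim member probe sets, and at 85% of all 22519 probe sets below the filter.

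Genes that act around this receptor system were read through 64 genes in 5 lists, of which 59 had a probe set and 51 were tested by the brightest one. None passed over all probe sets, against 0.227% of all genes. At an unadjusted p under 0.05 there were 5 higher and 3 lower, against 10.4% and 7.76% of all genes, or 18.2% in both directions. The median difference was 0.055 against 0.01 over all genes. Of 10 other sheddases and regulators tested, 7 had a positive difference, against 5768 of all 11016 genes, and 2 had an unadjusted p under 0.05. Rhbdf1, an inactive rhomboid that helps ADAM17 mature, was at 8.20, 8.37 and 8.46 against 7.99, 7.93 and 7.90, with no overlap and a difference of 0.40 ± 0.09 (SE, limma adjusted p = 0.12). Adam9, another membrane metalloproteinase, was at 9.98, 9.86 and 9.88 against 9.61, 9.78 and 9.57, also apart, with a difference of 0.26 ± 0.08 (limma adjusted p = 0.224). Adam10, the other main ligand sheddase, was picked with its values known because its probe sets disagreed. The brightest differed by 0.16 ± 0.13 (limma adjusted p = 0.592), 1450105_at by 0.25 ± 0.14 (adjusted p = 0.427), and 1450104_at, at 6.04, 5.78 and 6.17 against 5.22, 5.31 and 5.07, by 0.80 ± 0.12 (adjusted p = 0.078).

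**Figure D3:**
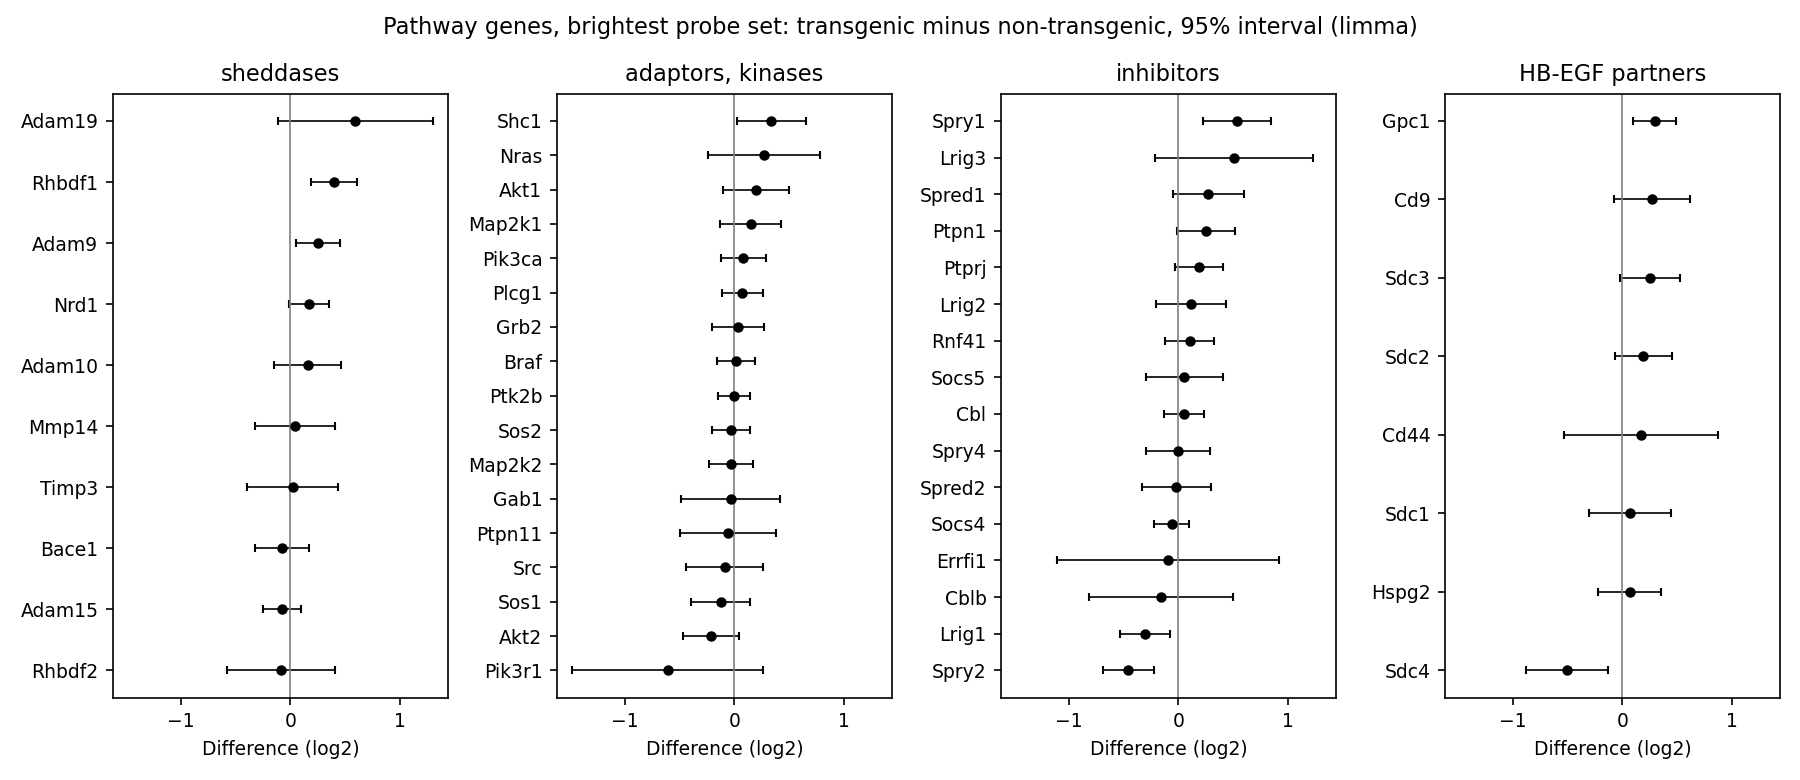
Difference in log2 value, labelled transgenic minus non-transgenic, with its 95% interval from limma, for the 51 pathway genes above the filter in 4 lists (other sheddases and regulators, adaptors and kinases, inhibitors and receptor turnover, partners of heparin-binding EGF). Most intervals include 0, and the Spry1 and Spry2 points lie on opposite sides of 0, at 0.53 and -0.45.

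Inhibitors of EGF receptor signalling had differences of both signs. Among 16 tested, 1 was higher and 2 were lower at an unadjusted p under 0.05, and none passed. Of all genes, 10.4% were higher and 7.76% lower at that p, or 18.2% in both directions. Spry1 and Spry2, feedback inhibitors of the receptor to MAP kinase route, were opposite in sign. Spry1 stood at 8.80, 8.55 and 8.71 against 8.03, 8.04 and 8.40, a difference of 0.53 ± 0.13 (SE, limma adjusted p = 0.144). Spry2 stood at 8.10, 7.90 and 8.13 against 8.62, 8.44 and 8.44, a difference of -0.45 ± 0.10 (limma adjusted p = 0.118). Neither overlapped between groups. The third of these genes, named after its values were seen, was Lrig1, which promotes degradation of ErbB receptors, at -0.30 ± 0.09 (limma adjusted p = 0.21). Its second probe set was at -0.36 (adjusted p = 0.124).

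Of 8 partners of heparin-binding EGF at the cell surface, 7 had a positive difference, against 5768 of all 11016 genes. None passed, against 0.227% of all genes. At an unadjusted p under 0.05, 1 was higher and 1 lower, against 10.4% and 7.76% of all genes. The heparan sulfate proteoglycan Gpc1 stood at 11.58, 11.42 and 11.55 against 11.14, 11.32 and 11.22, apart by group, with a difference of 0.29 ± 0.08 (SE, limma adjusted p = 0.176). The exception was the syndecan Sdc4, at 5.08, 4.95 and 5.43 against 5.85, 5.48 and 5.65. These groups were apart as well, with a difference of -0.50 ± 0.16 (limma adjusted p = 0.206), and its second probe set overlapped, at -0.19. Among 17 adaptors and kinases the median difference was -0.004. Of these, Shc1, an adaptor that binds activated EGF receptors, was at 0.34 ± 0.13 (limma adjusted p = 0.281) and the kinase Akt2 at -0.21 ± 0.11 (adjusted p = 0.378), with overlap between groups in each. Other Akt2 probe sets disagreed. Probe set 1455703_at was at -0.47 (limma adjusted p = 0.254) with the groups apart, and 1421324_a_at at 0.08 (adjusted p = 0.807) with overlap.

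The members with the largest spread over the 6 arrays were Hbegf, Egf and Erbb3, and genes with the most similar profile were sought by the root mean square difference of centred log2 values over 11016 genes. Nearest to Hbegf were Serpinb6b at 0.106, Phlda3 at 0.113 and Prmt2 at 0.115. Of these, Prmt2, an arginine methyltransferase, passed the test with a difference of 0.86 (limma adjusted p = 0.0257), while Serpinb6b (adjusted p = 0.0817) and Phlda3 (adjusted p = 0.0855) did not. Nearest to Egf were Gpr153 at 0.0957, the kinase scaffold Akap12 at 0.0971 and Rcn3 at 0.0996. Nearest to Erbb3 were Cdip1 at 0.0302, Ttc17 at 0.0317 and the transcription factor Mef2d at 0.0371. These distances are a description over 6 arrays. Genes chosen for a profile like that of a member share its group difference by that choice, so their differences are not further evidence.

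**Figure D4:**
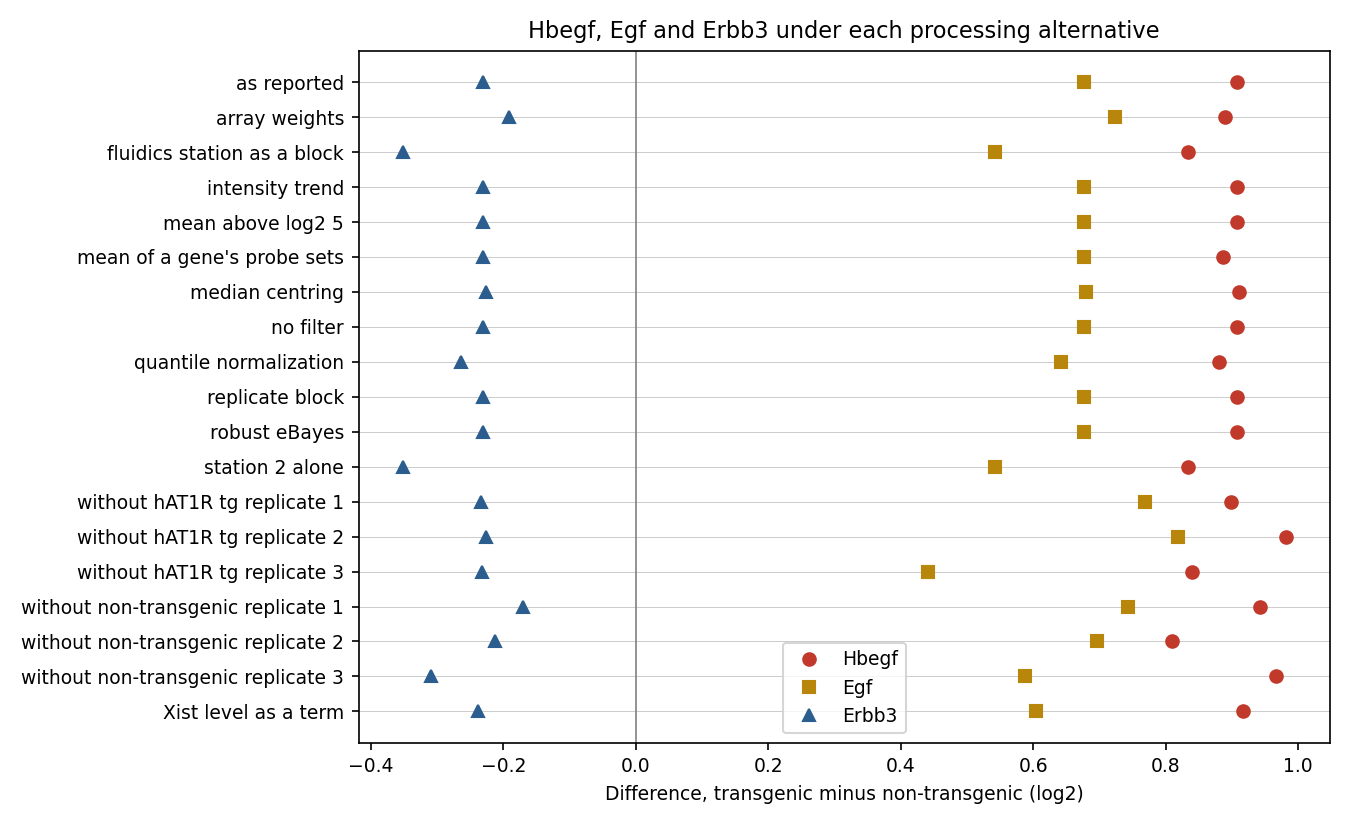
Difference in log2 value, labelled transgenic minus non-transgenic, for Hbegf (circles), Egf (squares) and Erbb3 (triangles) as reported and under each of 18 alternatives to the processing. Hbegf stays between 0.81 and 0.98, Egf between 0.44 and 0.82 and Erbb3 between -0.35 and -0.17. The station block and station 2 alone give the same estimates.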

How the data were processed

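RNA from mouse heart was hybridised to 6 arrays. The deposited values are on a log2 scale, 1 per probe set and array, made with GCRMA per the submitters' processing notes (version not given in the sources used here), and were used as deposited. Other fields came from the deposited instrument records, which hold no expression values. After 64 control probe sets were left out, genes were named from the platform annotation of 34945 probe sets with 1 gene. The test was limma's 2-sided moderated test (version 3.58.1, under R 4.3.3) on the 22518 probe sets above the filter, with Benjamini-Hochberg adjustment over all of them and a threshold of 0.05. A gene was represented by its brightest probe set. The fit was tested on simulated data. Groups and replicate numbers came from sample titles. No 2 arrays shared over 0.0178% of values.

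The named genes were all members, the 2 pathway genes per list with the smallest p where none passed, and the 3 nearest profiles of 3 members. Adam10, Lrig1, Acta1, Ckm, Fabp4 and Cd163 were added after their values were seen. Members and lists were chosen with earlier results of these data known. The number of arrays limits the precision. Alternatives covered the filter, normalization, variance model, array weights, replicate number, station, Xist level, probe set averaging and each array left out.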

Additional observations from a re-analysis of the deposited data

How the results depend on the processing

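Hbegf (0.81 to 0.98 with single arrays left out), Egf, Erbb3 and Erbb2 kept their direction in every alternative run. For Hbegf, Egf and Erbb3 the groups were apart, so leaving out or weighting arrays could not turn the sign. Changes of filter or variance model and the replicate block leave an estimate as it is. Such runs are no test of direction. No pathway gene passed in any alternative. Hbegf, at 0.91, passed in limma with an intensity trend (0.907, adjusted p = 0.045) or a filter at log2 5 (0.907, adjusted p = 0.039), and as the mean of its probe sets (0.887, adjusted p = 0.0359), so 1 member probe set was called with the trend and 2 with the stricter filter, under which Egfr, Erbb2 and Erbb4 were not tested. Values near 0 turned sign: Adam17 with array weights (0.027) or the Xist level as a term (0.012), Egfr with the station as a block or within station 2 (0.063 in each), and, with single arrays left out, Adam17 (-0.07 to 0.066), Egfr (-0.075 to 0.022) and Erbb4 (-0.018 to 0.106); the cause was not tested. The 49 calls over all probe sets became 108 with the trend, 143 with the stricter filter, 15 with no filter, 2 with the station as a block, 0 within station 2 (3771 at an unadjusted p under 0.05), 0 with the Xist level (3127 unadjusted), and 0 to 75 with single arrays left out. With replicate number as a block there were 0 calls (3324 unadjusted) and Hbegf was at 0.907 (adjusted p = 0.149). The numbers do not pair the arrays, since deviations of same-numbered arrays correlated at -0.083, -0.174 and -0.007. Within station 2 there was a single non-transgenic array, assumed to vary like the others. The differences with the station as a block rest on that same array and equal those within station 2. Dim signal left Nrg1, Adam12 and the 7 other ligands untested.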
